A study of Rattus norvegicus with 12 samples.

Results

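Integrins are receptors made of an alpha and a beta chain that hold a cell to its matrix, and the focal adhesion proteins tie their inner ends to actin. The 41 genes described here were chosen by symbol, 12 integrin alpha chains, 6 beta chains and 23 proteins of the adhesion plaque, and their levels were read in 12 RNA sequencing libraries of cultured neonatal rat ventricular cardiomyocytes of the Wistar strain. Of the 41, 36 were listed among the 17312 gene symbols of the files, and 33 passed a filter on low values that left 10518 genes to test. Itga2, Itga3, Itga9, Itgav and Tln2 were not analysed here. Itga10 (0.02 to 0.32 FPKM), Itgb4 (0.35 to 0.72) and Itgb6 (0.20 to 0.79) were listed but fell below the filter of 1 FPKM in at least 3 libraries. FPKM is the fragments of a transcript scaled to its length and to the library's size, a scale that allows levels to be compared between genes.

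The 4 groups held 3 libraries each: control siRNA without stretch, Wnt5a siRNA without stretch, control siRNA with stretch, and Wnt5a siRNA with stretch. Every culture had therefore received an siRNA, a short RNA that lowers the transcript it matches, and Wnt5a is a secreted ligand of the Wnt family. Below, "unstretched control" and "stretched control" stand for the libraries with the control siRNA. The labels give no size or duration of the stretch in a stated unit, and they do not say that libraries of a group came from separate cultures, so the p-values reflect library-to-library spread, and that spread may be technical.

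An integrin binds matrix proteins outside the cell, talin and kindlin bind its beta tail inside, and the occupied receptor gathers vinculin, the ILK-PINCH-parvin complex, focal adhesion kinase and paxillin. Talin unfolds under pull and exposes sites for vinculin, so the adhesion is a place where force becomes a chemical signal. In heart muscle the same proteins form the costamere, the rib-like attachment that couples the Z-disc of the sarcomere to the matrix through beta 1 integrin with alpha 7, alpha 5, alpha 1 and other partners.

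The targeted transcript was lower in the unstretched Wnt5a siRNA libraries (6.15, 4.60 and 6.81 FPKM) than in the unstretched controls (12.3, 10.4 and 11.6), a log2 change of −0.87 ± 0.14 (SE; limma adjusted p = 0.00142). With stretch, Wnt5a read 6.52, 5.66 and 8.22 FPKM in the controls and 6.22, 5.88 and 5.56 with the siRNA (log2 −0.17 ± 0.14, limma adjusted p = 0.387), so the transcript did not check the siRNA label of the stretched libraries. Wnt5a itself fell with stretch under control siRNA (log2 −0.68 ± 0.14, limma adjusted p = 0.00139), a call kept in all 19 alternatives. Its interaction was positive (0.70 ± 0.20, limma adjusted p = 0.0244), kept in 13 of 18. The part of this fall in the comparisons below was not tested. Stretched control 3 stood apart from its group. It lay nearer to the mean of the stretched Wnt5a siRNA libraries than to the mean of the other two stretched controls in 18 of the 33 tested members (54.5%) and in 6188 of 10518 genes (58.8%), and results that turn on it are given without it as well. Marker genes of the labelled cell type were abundant, the 8 cardiomyocyte markers summing to 10090 to 18333 FPKM. Markers of other cells moved with the groups. The fibroblast sum was 3336 to 3846 FPKM in the unstretched controls, 5087 to 5368 with Wnt5a siRNA alone, 4703 to 8173 in the stretched controls, where library 3 was the highest, and 8700 to 9306 with both, with Col1a2 listed at 0 throughout. The cardiomyocyte sums in the same order were 15664 to 18333, 11273 to 12072, 10090 to 16571 and 10174 to 12016 FPKM. Sums over endothelial (7.56 to 70.2 FPKM, highest with both), epicardial (7.40 to 15.3) and Schwann cell markers (3.12 to 5.62) were small. In bulk RNA, fewer cells of a type and less RNA per cell cannot be told apart, and the part of these markers in the results below was not tested.

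Under control siRNA, most of the adhesion genes that moved with stretch went up. Of the 33 tested members, 18 rose and 3 fell, while 27.5% of all tested genes rose and 26.8% fell. The median log2 change of the members was 0.30, and that of all genes 0.01. Among those that rose were the beta 1 chain Itgb1 (172% of the unstretched mean), the scaffold paxillin (Pxn, 167%), all 4 kinases and adaptors (2 of 4 with equal library sums), and the actin cross-linker Actn1 (226%). The 3 that fell were Itga8, vinculin (Vcl) and nexilin (Nexn). Here and throughout, a gene rose or fell where the adjusted p of limma, with Benjamini-Hochberg adjustment over the 10518 genes, was under 0.05. Stretched controls had a higher summed FPKM (676014 to 709021) than unstretched controls (588509 to 598628), and with every library rescaled to the same sum 11 members rose and 9 fell, against 13.8% and 42.7% of all genes, whose median moved to −0.19. With quantile normalization 12 rose and 4 fell, against 27.4% and 25.3%. Of the 21 calls, 12 held in every alternative run. Leaving out single libraries removed the calls of Itga1, Fermt2, Src, Bcar1, Vasp, Flnc and Nexn. Of those runs the highest adjusted p came without unstretched control 3 (Itga1 0.138, Src 0.18), stretched control 1 (Fermt2 0.156, Bcar1 0.169, Vasp 0.151, Flnc 0.161) or stretched control 3 (Nexn 0.125). Vcl lost its call without unstretched control 1 (0.0693), when 1 member fell (24.3% of all genes). Equal library sums removed the rises of Itga1 (adjusted p = 0.427), Tln1 (0.127), Fermt2 (0.867), Src (0.781), Bcar1 (0.461), Vasp (0.531) and Flnc (0.113). Quantile normalization removed the same rises except that of Src. Beside this comparison, 7 of 9 tested fibroblast markers and 5 of 7 macrophage markers rose and 5 of 8 cardiomyocyte markers fell, with 1 cardiomyocyte marker higher. Of the other lists, 1 of 7 endothelial, 2 of 8 smooth muscle and 1 of 4 epicardial markers rose, and 2 of 8 smooth muscle and 1 of 2 Schwann cell markers fell. The macrophage sum went from 125 to 159 FPKM to 248 to 396.

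In stretched cultures, Wnt5a siRNA went with lower adhesion gene levels. Of 33 members, 22 fell and 1 rose, beside 14.2% of all genes that fell and 13.2% that rose. The median log2 change was −0.39 in the members and 0.00 over all genes. All 3 tested talin, kindlin and vinculin genes fell, as did 10 of the 12 actin linkers and LIM proteins, led by the muscle filamin Flnc (43% of the stretched control mean) and Actn1 (47%). The single member that rose was Itga8. Stretch under control siRNA and this comparison share the 3 stretched control libraries, so a member high in those libraries counts in both. With equal library sums 17 fell and 1 rose, beside 7.71% of all genes that fell and 20.8% that rose. With quantile normalization 15 fell and 1 rose, beside 11% and 11.1%. The calls that held in every alternative were 7, those of Itga1, Itga4, Fermt2, Vasp, Tns1, Flnc and Actn1. Those of Itgb1 (0.0559, quantile normalization) and Tns3 (0.0736, equal sums) were lost only on rescaling. The other 14, those of Itga5, Itga8, Itgb5, Tln1, Vcl, Ilk, Src, Bcar1, Pxn, Zyx, Flna, Actn4, Nexn and Pdlim7, were lost without stretched control 1 (adjusted p from 0.0525 for Zyx to 0.127 for Nexn). Of these, Itga5, Src, Flna and Nexn were also lost with equal sums. Itga5, Itgb5, Tln1, Bcar1, Flna and Nexn were also lost with quantile normalization. The number of members that fell was 9 without that library (where 5.58% of all genes fell), 12 without stretched control 2 (8.19%), 13 without stretched Wnt5a siRNA 1 (8.59%), 11 without stretched Wnt5a siRNA 3 (6.38%) and 23 without stretched control 3 (22.6%). Without that last library Parva also fell (log2 −0.33, adjusted p = 0.00456), and Itgb8 (0.35, 0.0147) and Sorbs3 (0.26, 0.0368) rose. Fibroblast markers moved the other way, 6 of 9 rising and none falling, 1 of 8 cardiomyocyte markers fell, and 2 of 7 endothelial, 1 of 4 epicardial and 1 of 2 Schwann cell markers rose. In the smooth muscle and pericyte list 4 of 8 fell and 2 rose, its sum being 2619 to 4665 FPKM in the stretched controls and 2112 to 2470 with the siRNA, and their part was not tested.

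Without stretch, Wnt5a siRNA was accompanied by few changes among the members. Itga7, Itga5 and Pdlim7 rose and Nexn and Itga8 fell, 3 and 2 of 33, beside 14.6% of all genes that rose and 13.9% that fell. The median was 0.11, against 0.00 for all genes. With quantile normalization 7 rose and 2 fell, beside 16.4% and 14.7%. Itga7 kept its call in every alternative, while the highest adjusted p was 0.0772 for Itga5 and 0.113 for Itga8 (both without unstretched control 2), 0.069 for Nexn (without unstretched control 3) and 0.0738 for Pdlim7 (without unstretched Wnt5a siRNA 2). The number that rose was 1 without unstretched control 2 (9.40% of all genes), unstretched control 3 (8.81%) or unstretched Wnt5a siRNA 2 (9.58%), 5 without unstretched Wnt5a siRNA 3 (12%) and 6 without unstretched control 1 (11.9%). The number that fell was 0 without unstretched Wnt5a siRNA 2 (9.08% of all genes), 1 without any other unstretched library (8.05% to 12.1%), and 4 without stretched control 3 (18.4%), when Vcl (log2 −0.29, adjusted p = 0.0304) and Tns1 (−0.32, 0.00877) fell and Itgb3 rose (0.53, 0.00429). Cardiomyocyte markers fell in 4 of 8 and fibroblast markers rose in 4 of 9 and fell in 1. Macrophage markers fell in 4 of 7, with none higher, and 2 of 8 smooth muscle and 2 of 4 epicardial markers rose.

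With Wnt5a siRNA in both arms, stretch was followed by a rise of Tes and Ptk2 and a fall of Vcl, Itga6, Itga7 and Flna, 2 and 4 of 33, where 8.44% of all genes rose and 7.59% fell. The member median was −0.17 and that of all genes −0.01. This comparison shares no library with stretch under control siRNA: 2 of the 18 members that rose there also rose here, and these were both of the members that rose here. With equal library sums none rose and 12 fell, beside 4.77% and 16.9% of all genes, and with quantile normalization 2 rose and 10 fell, beside 7.79% and 8.1%. Same-numbered libraries deviated together in this comparison, and with the library number as a block Itga7 was not called (adjusted p = 0.0565). With this block 2 members rose and 5 fell (8.38% and 7.72% of all genes), with Tns1 (0.0316) and Actn4 (0.0164) added. Only the fall of Vcl held in every alternative, and the highest adjusted p of the others was 0.178 for Itga7, 0.139 for Ptk2 and 0.15 for Tes on leaving out stretched Wnt5a siRNA 1, and 0.0915 for Itga6 and 0.051 for Flna on leaving out unstretched Wnt5a siRNA 2 (0.184 for Ptk2 with equal library sums). The number that fell was 1 without unstretched Wnt5a siRNA 2 (5.34% of all genes), 2 without unstretched Wnt5a siRNA 1 (3.92%), stretched Wnt5a siRNA 1 (3.38%) or stretched Wnt5a siRNA 3 (5.69%), and 9 without stretched control 3 (12.3%), which enters this comparison only through the common spread. The members added without it were Fermt2, Tns1, Flnc, Actn4 and Nexn. All 7 macrophage markers, 5 of 7 endothelial markers and 8 of 9 fibroblast markers rose in this comparison and 3 of 8 cardiomyocyte markers fell. Of the smooth muscle markers 2 of 8 rose and 3 fell, and 1 of 4 epicardial markers fell.

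The difference between the stretch changes under the 2 siRNAs was itself tested as an interaction. It was negative, that is, stretch raised the gene less or lowered it more with Wnt5a siRNA, in 13 members and positive in 1, beside 12.1% and 11.7% of all genes. The median was −0.45 in the members and 0.00 over all genes. The largest was that of Actn1 (−1.47 ± 0.29, limma adjusted p = 0.00514), and the positive one that of Itga8 (0.53 ± 0.11, 0.00568). Of the 14, 9 held in every alternative: Itga4, Itga5, Itga8, Itgb1, Tln1, Pxn, Zyx, Actn1 and Pdlim7. The highest adjusted p of the rest was 0.0971 for Itga1, 0.0669 for Fermt2, 0.0531 for Ilk and 0.0728 for Flnc without stretched Wnt5a siRNA 3, and 0.0874 for Flna without unstretched control 3. Without stretched Wnt5a siRNA 3 the negative count was 8 (7.71% of all genes), and without stretched control 3 it was 19 (18.1%), with Itgb5, Src, Bcar1, Vasp, Tns1 and Actn4 added. Among the marker lists the interaction was positive in 4 of 7 endothelial (median 1.17), 3 of 9 fibroblast, 2 of 8 cardiomyocyte and 1 of 7 macrophage markers and negative in 2 of 8 smooth muscle markers, and their part in the members' values was not tested. The interaction uses all 4 groups, so its values are not separate evidence from the comparisons above.

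**Figure D1:**
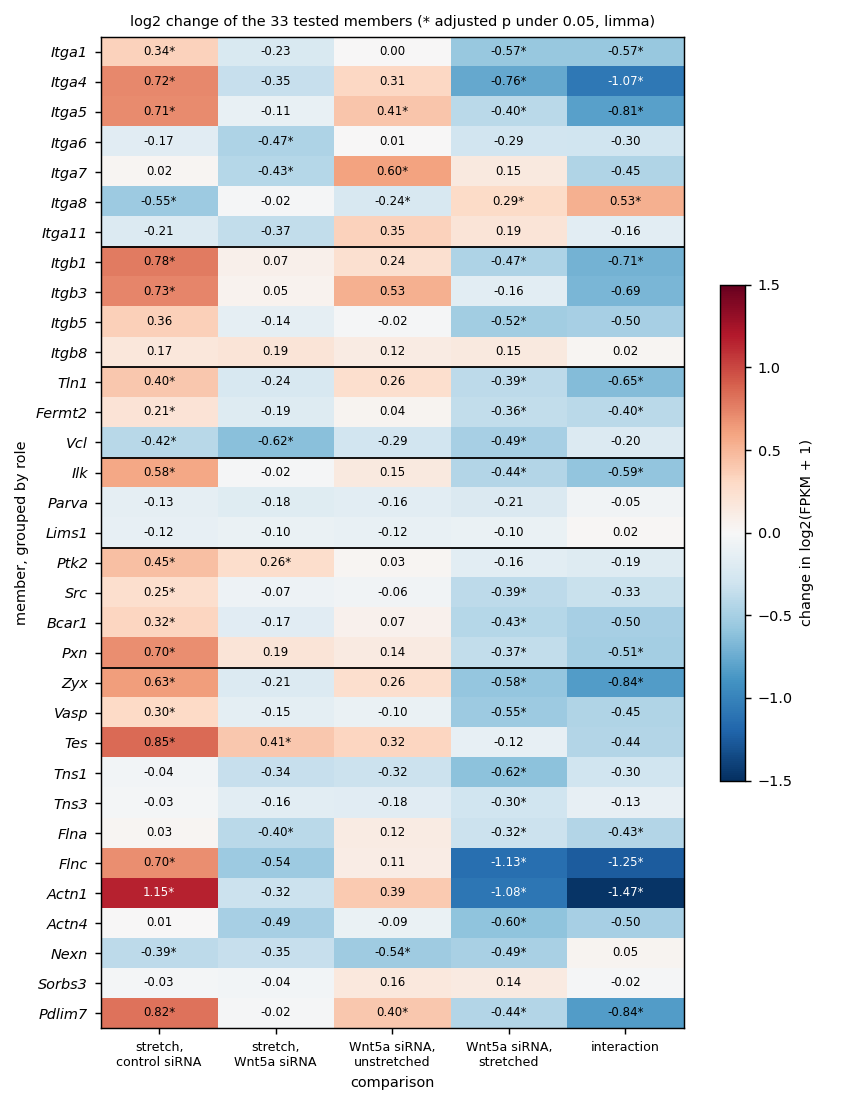
Change in log2(FPKM + 1) of the 33 tested members (rows, grouped by role) in the 5 comparisons (columns), with an asterisk where the adjusted p of limma was under 0.05. The column of stretch under control siRNA holds 18 higher and 3 lower calls, and that of Wnt5a siRNA in stretched cultures 1 higher and 22 lower.

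**Figure D2:**
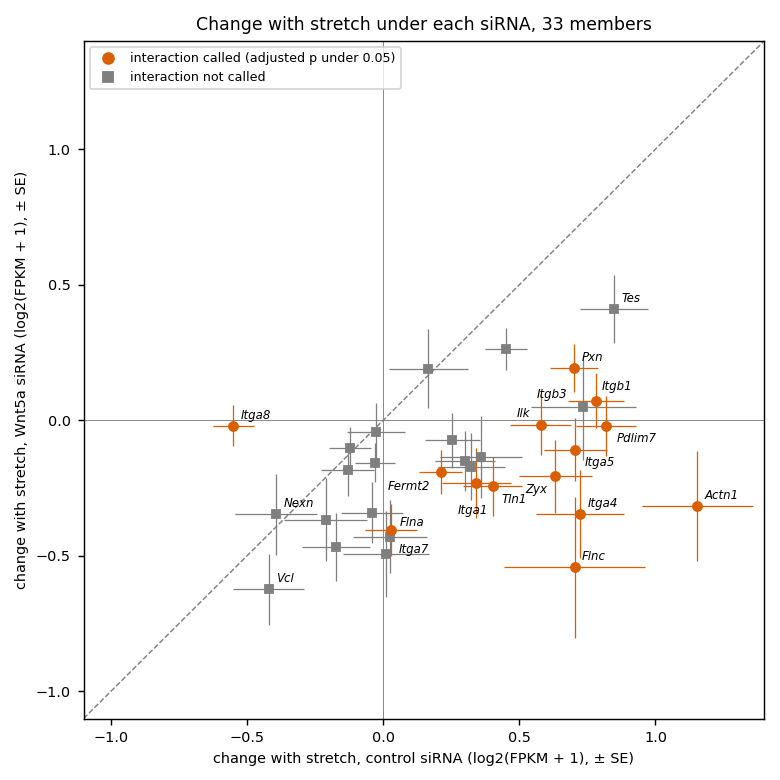
Change in log2(FPKM + 1) with stretch under control siRNA (horizontal axis) and under Wnt5a siRNA (vertical axis) for the 33 tested members, with SE bars and a dashed line of equal change. The 13 members with a negative interaction lie below the line, and Itga8, with a positive one, lies above it.

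Among the beta chains, which carry the tails that talin and kindlin bind, beta 1 was by far the most abundant. Itgb1 was at 696, 582 and 579 FPKM in the unstretched controls and 1142, 1005 and 1040.2 in the stretched controls, and with Wnt5a siRNA at 729, 815 and 652 without stretch and 790.3, 818 and 697 with it. The stretched controls were the 3 highest libraries of all, and with Wnt5a siRNA the stretched and unstretched libraries overlapped. Itgb1 rose with stretch under control siRNA (log2 0.78 ± 0.10, adjusted p = 5.56e-05), fell with Wnt5a siRNA in stretched cultures (log2 −0.47 ± 0.10, adjusted p = 0.00805), and had a negative interaction (log2 −0.71 ± 0.14, adjusted p = 0.00602). Under Wnt5a siRNA its change with stretch was 0.07, with a 95% interval of −0.15 to 0.30.

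The unstretched controls held 82.4, 75.4 and 73.1 FPKM of Itgb5 and the stretched controls 122, 109 and 72.5, while the Wnt5a siRNA libraries held 74.8, 85.0 and 68.2 without and 70.4, 71.5 and 64.7 with stretch. Itgb5, a partner of alpha v, was high in 2 stretched controls and not in stretched control 3, so that group overlapped the unstretched controls and the rise was not called (log2 0.36 ± 0.15, adjusted p = 0.0601). Without that library it was (log2 0.58, adjusted p = 0.000204), and so was the interaction, at −0.72 (0.0015) beside −0.50 with all libraries (0.109). It was lower with Wnt5a siRNA under stretch (log2 −0.52 ± 0.15, adjusted p = 0.0257), where the groups did not overlap. For Itgb3, the controls read 18.0, 16.4 and 13.7 FPKM without stretch and 22.5, 22.3 and 40.0 with it, and the Wnt5a siRNA libraries 23.2, 27.7 and 20.0 and 25.1, 25.8 and 22.1. Itgb3, another alpha v partner, was highest in stretched control 3, and every stretched control exceeded every unstretched control (log2 0.73 ± 0.19, adjusted p = 0.00637). Its interaction was −0.69 ± 0.27 and did not pass (adjusted p = 0.0858). Itgb8, which binds latent TGF-beta, ran from 4.78 to 8.29 FPKM and passed in no comparison of all 12 libraries.

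Alpha chains set which matrix protein a receptor binds. Levels of Itga5 were 64.1, 53.8 and 59.0 FPKM (unstretched controls), 109, 99.5 and 83.1 (stretched controls), 81.4, 81.7 and 73.4 (Wnt5a siRNA alone) and 70.5, 85.6 and 64.3 (Wnt5a siRNA with stretch). Itga5, the fibronectin-binding chain, was above every unstretched control in all other libraries of the series, and the stretched controls overlapped the stretched Wnt5a siRNA libraries through stretched control 3 (83.1 FPKM). It rose with stretch under control siRNA (log2 0.71 ± 0.12, adjusted p = 0.00028) and with Wnt5a siRNA without stretch (log2 0.41 ± 0.12, adjusted p = 0.0193), and was lower with the siRNA under stretch (log2 −0.40 ± 0.12, adjusted p = 0.0253). Itga4 was at 26.9, 20.1 and 17.4 FPKM in the unstretched controls and 39.1, 29.5 and 38.8 in the stretched controls, and with Wnt5a siRNA at 28.0, 30.7 and 21.3 without stretch and 21.0, 21.0 and 19.6 with it. Itga4 binds fibronectin and the cell surface protein Vcam1, and its stretched controls lay above all unstretched controls and all stretched Wnt5a siRNA libraries. Its changes were log2 0.72 ± 0.16, adjusted p = 0.00239, with stretch and log2 −0.76 ± 0.16, adjusted p = 0.00703, with Wnt5a siRNA under stretch. The unstretched controls held 76.6, 60.5 and 58.7 FPKM of Itga1 and the stretched controls 81.0, 77.3 and 89.4, while the Wnt5a siRNA libraries held 65.5, 75.0 and 55.5 without and 57.3, 60.8 and 48.0 with stretch. Itga1, a collagen-binding chain, was likewise highest in the stretched controls, and it fell with Wnt5a siRNA under stretch (log2 −0.57 ± 0.13, adjusted p = 0.00871).

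For Itga7, the controls read 39.7, 40.3 and 42.6 FPKM without stretch and 39.2, 37.5 and 48.8 with it, and the Wnt5a siRNA libraries 61.2, 77.3 and 51.3 and 42.0, 51.2 and 45.4. Itga7, the laminin-binding chain of striated muscle, was high in the unstretched Wnt5a siRNA libraries and apart there from the unstretched controls. It rose with Wnt5a siRNA without stretch (log2 0.60 ± 0.14, adjusted p = 0.00725) and did not move detectably with stretch under control siRNA (log2 0.02, 95% interval −0.27 to 0.32). Levels of Itga8 were 30.7, 31.5 and 28.5 FPKM (unstretched controls), 19.7, 21.2 and 20.1 (stretched controls), 24.7, 25.4 and 26.3 (Wnt5a siRNA alone) and 24.8, 23.0 and 27.7 (Wnt5a siRNA with stretch). Itga8, a chain that binds RGD-containing ligands such as nephronectin, was highest in the unstretched controls and lowest in the stretched controls, with the siRNA libraries between them and no overlap with either. It fell with stretch under control siRNA (log2 −0.55 ± 0.08, adjusted p = 7.46e-05) and with Wnt5a siRNA without stretch (log2 −0.24 ± 0.08, adjusted p = 0.0323), and was higher with the siRNA under stretch (log2 0.29 ± 0.08, adjusted p = 0.0162). Itga6, a second laminin-binding chain (12.2 to 23.0 FPKM), fell with stretch under Wnt5a siRNA (log2 −0.47 ± 0.12, adjusted p = 0.0242), as did Itga7 (log2 −0.43 ± 0.14, adjusted p = 0.0482). The collagen-binding Itga11 (13.8 to 29.7 FPKM) passed in no comparison outside the alternative runs. With equal library sums it fell with stretch under control siRNA (log2 −0.43, limma adjusted p = 0.0294) and under Wnt5a siRNA (−0.48, 0.0386), where 42.7% and 16.9% of all genes fell. Fitting only the groups compared called its rise with Wnt5a siRNA without stretch (0.35, 0.0243).

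The mixture of chains was read as shares of summed FPKM. Itgb1 made up 86.1% ± 0.63 (SD, n = 3) of the summed FPKM of the listed beta chains in the unstretched controls, 88.6% ± 0.82 in the stretched controls, 87.3% ± 0.09 with Wnt5a siRNA and 88.4% ± 0.32 with both. The summed FPKM of the 8 listed alpha chains was 257 ± 21.6 (SD) in the unstretched controls, 313 ± 15.4 in the stretched controls, 306 ± 36.4 with Wnt5a siRNA and 255 ± 17.7 with both. Itgb1 transcript per summed alpha chain was 2.40 ± 0.06 (SD, n = 3) without stretch in the controls and 3.39 ± 0.11 with it, and 2.40 ± 0.02 and 3.01 ± 0.10 with Wnt5a siRNA. The ranges of this ratio in stretched libraries (2.92 to 3.50) lay above those of unstretched libraries (2.35 to 2.47) under both siRNAs. Within the alpha chains, Itga8 went from 11.8% ± 1.06 to 6.52% ± 0.58 with stretch in the controls, while Itga5 went from 22.9% ± 0.90 to 31.1% ± 4.22. With Wnt5a siRNA the Itga7 share was 20.5% ± 1.83 without stretch and 18.1% ± 1.32 with it, beside 16.0% ± 1.68 and 13.4% ± 1.79 in the controls. These shares are descriptions over the chains listed, were not tested, and leave out Itga3, Itgav and the other chains not analysed here.

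**Figure D3:**
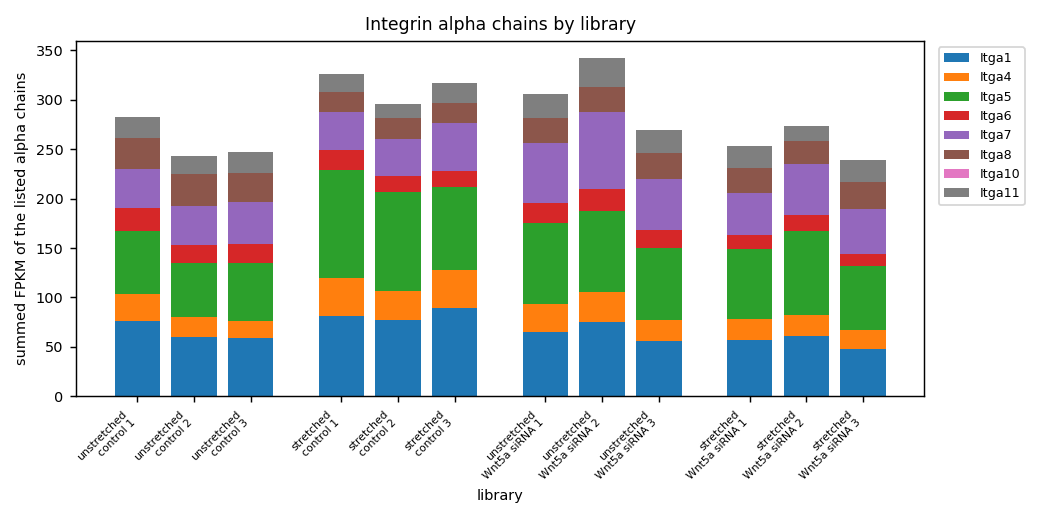
Summed FPKM of the 8 listed integrin alpha chains (vertical axis, stacked by chain) in each of the 12 libraries. The Itga5 segment spans 83.1 to 109 FPKM in the stretched controls and reaches 85.6 FPKM in stretched Wnt5a siRNA 2, so these groups overlap, and the Itga8 segment is smallest in the stretched controls (19.7 to 21.2 FPKM).

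Talin, kindlin and vinculin turn the receptor on and load it. Tln1 was at 115, 103 and 99.5 FPKM in the unstretched controls and 150.1, 144 and 127 in the stretched controls, and with Wnt5a siRNA at 125, 148 and 109 without stretch and 107, 116 and 98.5 with it. Talin 1, which binds the beta tail and actin, was higher in each stretched control than in any unstretched control or stretched Wnt5a siRNA library. It rose with stretch under control siRNA (log2 0.40 ± 0.11, adjusted p = 0.00725), a call lost with equal library sums (0.127) and quantile normalization (0.0631), and fell with Wnt5a siRNA under stretch (log2 −0.39 ± 0.11, adjusted p = 0.0209). The unstretched controls held 380.3, 324 and 315 FPKM of Vcl and the stretched controls 279, 284 and 204, while the Wnt5a siRNA libraries held 276, 313 and 245 without and 177, 195 and 166 with stretch. Vinculin, which binds opened talin, had its highest libraries in the unstretched controls and its lowest with stretch and Wnt5a siRNA together. It fell with stretch under both siRNAs (log2 −0.42 ± 0.13, adjusted p = 0.0163, with the control and log2 −0.62 ± 0.13, adjusted p = 0.00745, with Wnt5a siRNA) and with Wnt5a siRNA under stretch (log2 −0.49 ± 0.13, adjusted p = 0.0176), and the interaction was −0.20 with a 95% interval of −0.60 to 0.20. Fermt2, kindlin 2, ranged from 126 to 183 FPKM. It fell with Wnt5a siRNA under stretch (log2 −0.36 ± 0.08, adjusted p = 0.00825), and its rise of 0.21 with stretch in the controls became −0.0157 with equal library sums (adjusted p = 0.867).

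Of the ILK-PINCH-parvin complex, Ilk changed. For Ilk, the controls read 267, 249.7 and 241 FPKM without stretch and 408, 414 and 318 with it, and the Wnt5a siRNA libraries 279, 309.8 and 255 and 277, 309 and 249. Ilk, the pseudokinase that joins the beta tail to parvin, was higher in every stretched control than in any other library (log2 0.58 ± 0.11, adjusted p = 0.000906, with stretch; log2 −0.44 ± 0.11, adjusted p = 0.0143, with Wnt5a siRNA under stretch). Parva (133 to 187 FPKM) and the PINCH gene Lims1 (41.7 to 54.5 FPKM) passed in no comparison outside the alternative runs. With equal library sums both fell with stretch under control siRNA (limma adjusted p = 0.00334 for Parva and 0.00507 for Lims1), where 42.7% of all genes fell. Parva also fell there with quantile normalization (0.0123), and with stretch under Wnt5a siRNA on either rescaling (0.0251 and 0.0441). With the replicate block it fell with Wnt5a siRNA under stretch (0.0471).

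Kinases and their adaptors pass the signal on. Levels of Pxn were 18.3, 19.0 and 16.6 FPKM (unstretched controls), 34.0, 28.1 and 27.6 (stretched controls), 19.5, 20.4 and 19.6 (Wnt5a siRNA alone) and 23.5, 24.0 and 21.0 (Wnt5a siRNA with stretch). Paxillin, the scaffold that focal adhesion kinase binds, was highest in the 3 stretched controls, with the stretched Wnt5a siRNA libraries next and above every unstretched library. It rose with stretch under control siRNA (log2 0.70 ± 0.09, adjusted p = 4.37e-05) and fell with Wnt5a siRNA under stretch (log2 −0.37 ± 0.09, adjusted p = 0.0118), and its interaction was negative (log2 −0.51 ± 0.13, adjusted p = 0.0142). Under Wnt5a siRNA its change with stretch was 0.19 with a 95% interval of −0.0002 to 0.39. Focal adhesion kinase (Ptk2, 26.1 to 40.1 FPKM) rose with stretch under control siRNA (log2 0.45 ± 0.08, adjusted p = 0.000336) and under Wnt5a siRNA (log2 0.26 ± 0.08, adjusted p = 0.0342), and its interaction was not called (−0.19 ± 0.11, adjusted p = 0.22). Src (16.7 to 25.4 FPKM) and the adaptor Bcar1, p130Cas, which is phosphorylated when stretched (40.9 to 68.5 FPKM), rose by 0.25 and 0.32 with stretch in the controls (limma adjusted p = 0.0483 and 0.0406). They fell by 0.39 and 0.43 with Wnt5a siRNA under stretch (0.0164 and 0.0244). Equal library sums removed the rises of Src (0.781) and Bcar1 (0.461), the fall of Src (0.0551) and the rise of Ptk2 under Wnt5a siRNA (0.184).

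Actin linkers gave the largest changes. Actn1 was at 234, 176 and 173 FPKM in the unstretched controls and 571, 404 and 345 in the stretched controls, and with Wnt5a siRNA at 248, 321 and 203 without stretch and 200.3, 242 and 172 with it. The stretched controls were the 3 highest libraries, and the other 9 lay between 172 and 321 FPKM. Alpha-actinin 1, a cross-linker of actin in stress fibres and adhesions, rose with stretch (log2 1.15 ± 0.20, adjusted p = 0.000484) and fell with Wnt5a siRNA under stretch (log2 −1.08 ± 0.20, adjusted p = 0.00455). The unstretched controls held 154, 126 and 119 FPKM of Flnc and the stretched controls 308, 256 and 128, while the Wnt5a siRNA libraries held 147, 163 and 122 without and 88.0, 123 and 86.6 with stretch. Filamin C, the muscle filamin of Z-discs and costameres, was high in stretched controls 1 and 2, whereas stretched control 3 lay within the unstretched controls. Its rise with stretch was log2 0.70 ± 0.26, adjusted p = 0.0366, and 1.08 without stretched control 3, while its fall with Wnt5a siRNA under stretch (log2 −1.13 ± 0.26, adjusted p = 0.00971) held in every alternative. For Zyx, the controls read 144, 117 and 121 FPKM without stretch and 222, 206 and 169 with it, and the Wnt5a siRNA libraries 150.3, 183 and 127 and 137, 139.7 and 119. Zyxin, a LIM protein that moves to strained stress fibres, was higher in every stretched control than in the unstretched controls or the stretched Wnt5a siRNA libraries. It rose with stretch (log2 0.63 ± 0.14, adjusted p = 0.00183) and fell with the siRNA under stretch (log2 −0.58 ± 0.14, adjusted p = 0.0103).

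Levels of Pdlim7 were 88.5, 72.7 and 77.0 FPKM (unstretched controls), 156, 139 and 127 (stretched controls), 99.9, 124 and 93.5 (Wnt5a siRNA alone) and 107, 108 and 96.2 (Wnt5a siRNA with stretch). Pdlim7, a PDZ and LIM protein of actin bundles, was highest in the stretched controls and lowest in the unstretched controls, with the siRNA libraries between. It rose with stretch (log2 0.82 ± 0.11, adjusted p = 6.74e-05) and with Wnt5a siRNA without stretch (log2 0.40 ± 0.11, adjusted p = 0.0177), and fell with the siRNA under stretch (log2 −0.44 ± 0.11, adjusted p = 0.0149). Tes was at 9.46, 6.36 and 8.48 FPKM in the unstretched controls and 15.8, 14.3 and 15.6 in the stretched controls, and with Wnt5a siRNA at 11.3, 9.57 and 9.89 without stretch and 14.8, 12.2 and 14.9 with it. Testin, a LIM protein that joins zyxin at adhesions, was higher in all stretched than in all unstretched libraries. It rose with stretch under both siRNAs (log2 0.85 ± 0.12, adjusted p = 0.000127, with the control; log2 0.41 ± 0.12, adjusted p = 0.0429, with Wnt5a siRNA), the second lost with equal library sums (0.119), and its change with Wnt5a siRNA under stretch was −0.12 with a 95% interval of −0.39 to 0.15. The unstretched controls held 105, 97.9 and 95.8 FPKM of Vasp and the stretched controls 140.0, 134 and 98.8, while the Wnt5a siRNA libraries held 90.7, 100.2 and 88.1 without and 88.2, 83.7 and 78.9 with stretch. Vasp, which lengthens actin filaments, was lower in every stretched Wnt5a siRNA library than in any control library. It fell with Wnt5a siRNA under stretch (log2 −0.55 ± 0.11, adjusted p = 0.0059).

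Several linkers were lower with stretch and Wnt5a siRNA together without having risen with stretch. For Tns1, the controls read 252, 227 and 219 FPKM without stretch and 253, 244 and 186 with it, and the Wnt5a siRNA libraries 187, 204 and 169 and 136, 159.9 and 145. Tensin 1, which links beta tails to actin, was lowest in the stretched Wnt5a siRNA libraries, below every other library (log2 −0.62 ± 0.11, adjusted p = 0.0041, against the stretched controls). Levels of Actn4 were 469, 413 and 407 FPKM (unstretched controls), 516, 481 and 324 (stretched controls), 398, 476 and 341 (Wnt5a siRNA alone) and 281, 311 and 265 (Wnt5a siRNA with stretch). Actn4, the second non-muscle alpha-actinin, was also lowest in these 3 libraries, with stretched control 3 the lowest control, and its fall was log2 −0.60 ± 0.16, adjusted p = 0.018. Nexn was at 524, 525 and 564 FPKM in the unstretched controls and 463, 489 and 302 in the stretched controls, and with Wnt5a siRNA at 395, 370.1 and 347 without stretch and 279.9, 334 and 263 with it. Nexilin, an actin-binding protein of the Z-disc, was highest in the unstretched controls and did not overlap them in any other group. It fell with stretch (log2 −0.39 ± 0.15, adjusted p = 0.0422), with Wnt5a siRNA without stretch (log2 −0.54 ± 0.15, adjusted p = 0.0195) and with the siRNA under stretch (log2 −0.49 ± 0.15, adjusted p = 0.0311), and the first was not called without stretched control 3 (0.125). Flna (302 to 459 FPKM) and Tns3 (25.3 to 35.4 FPKM) fell with Wnt5a siRNA under stretch, by 0.32 and 0.30, and Flna fell with stretch under Wnt5a siRNA too (log2 −0.40 ± 0.09, adjusted p = 0.013). Vinexin (Sorbs3, 20.8 to 29.2 FPKM) passed in no comparison of all 12 libraries.

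**Figure D4:**
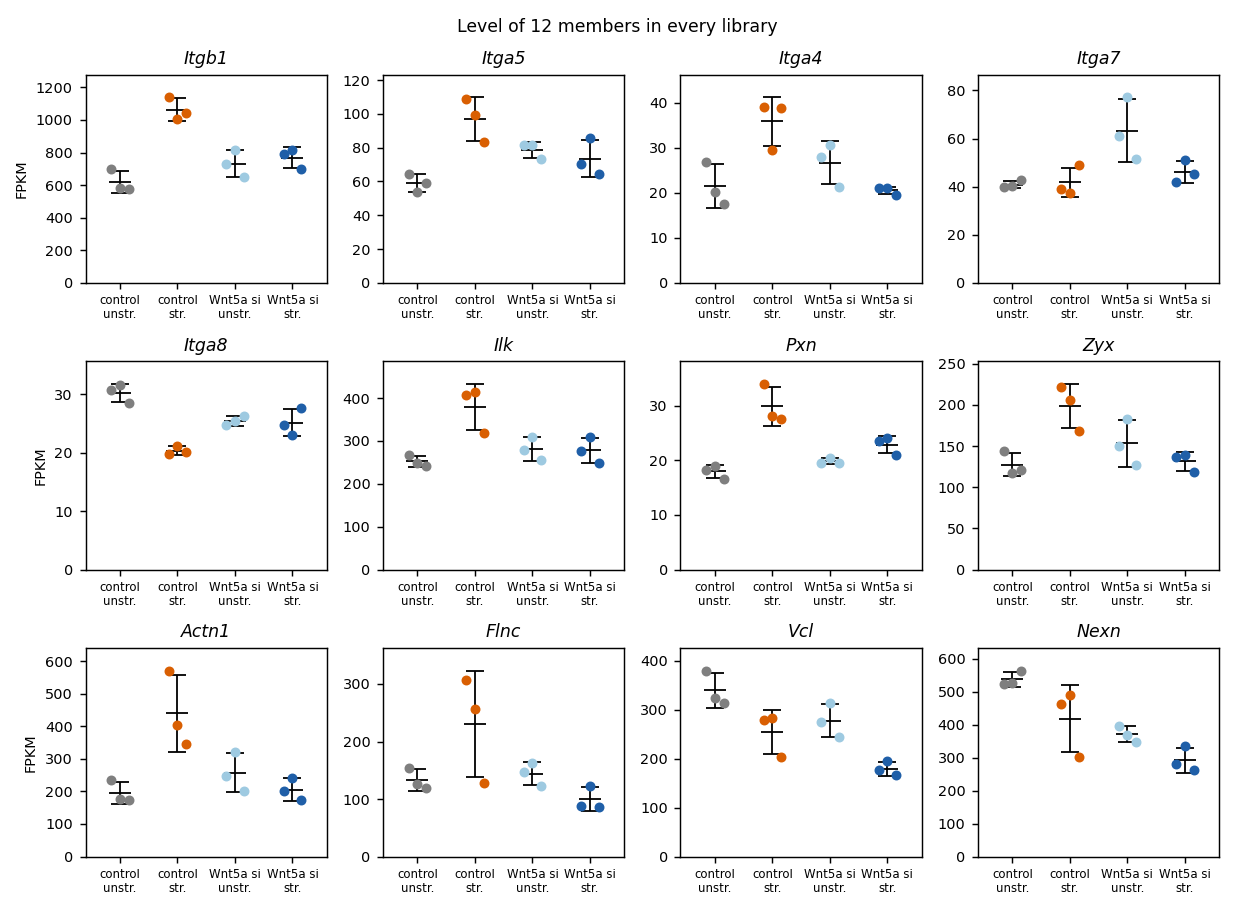
FPKM of 12 members (vertical axes, from 0) in every library of the 4 groups (horizontal axis), each point 1 library, with the mean and SD of 3 libraries as bars. Itgb1, Ilk, Pxn and Actn1 have their 3 highest libraries in the stretched controls, whereas Vcl and Nexn have theirs in the unstretched controls and Itga8 is lowest in the stretched controls.

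Promoters were searched because the series title names YAP, a cofactor of TEAD transcription factors, whose core motif is GGAATG. The windows printed below were chosen because they hold that motif. Windows of 250 bases before to 50 after each annotated start were taken from RefSeq (build GRCr8), and 31 of the 41 members had at least 1. The motif was searched on both strands, as GGAATG or CATTCC. It occurred in 10 of 35 member windows (28.6%) and in 14.2% of the 33469 windows in the table. Of the 14 members with a called interaction 13 had a window and 5 held the motif (Itga4, Itgb1, Zyx, Flna and Flnc), and of the 19 tested without one 11 had a window and 3 held it (Itgb8, Vcl and Nexn). The windows of Itga1, Itga5, Itga8, Tln1, Ilk, Pxn, Actn1 and Pdlim7, each with a called interaction, held no match. Among these is Actn1, whose interaction was the largest. Printed are 4 with a called negative interaction, 5′ to 3′ on the strand of the gene, with the motif in capitals: Itgb1 at chr19:73602027-73602326, plus strand, motif at position −146 from the start; Zyx at chr4:72203750-72204049, plus strand, position −205; Flnc at chr4:58999297-58999596, plus strand, position −121; and Itga4 at chr3:84569765-84570064, plus strand, position 30.
Itgb1: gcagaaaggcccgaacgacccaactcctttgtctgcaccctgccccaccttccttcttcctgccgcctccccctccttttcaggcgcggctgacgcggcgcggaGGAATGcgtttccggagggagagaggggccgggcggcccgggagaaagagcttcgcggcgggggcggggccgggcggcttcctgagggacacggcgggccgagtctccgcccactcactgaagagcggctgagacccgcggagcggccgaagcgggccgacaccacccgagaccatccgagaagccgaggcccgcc
Zyx: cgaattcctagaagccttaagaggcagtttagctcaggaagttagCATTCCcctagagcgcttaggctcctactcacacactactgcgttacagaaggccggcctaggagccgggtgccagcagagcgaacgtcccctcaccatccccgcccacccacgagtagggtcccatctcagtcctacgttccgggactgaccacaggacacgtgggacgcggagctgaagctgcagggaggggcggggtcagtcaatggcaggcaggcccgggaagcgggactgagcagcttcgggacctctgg
Flnc: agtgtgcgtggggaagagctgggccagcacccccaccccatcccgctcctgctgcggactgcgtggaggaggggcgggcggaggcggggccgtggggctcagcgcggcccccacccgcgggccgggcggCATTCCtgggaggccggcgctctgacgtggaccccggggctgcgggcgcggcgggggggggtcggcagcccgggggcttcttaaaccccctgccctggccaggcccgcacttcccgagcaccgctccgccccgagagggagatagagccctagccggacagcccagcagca
Itga4: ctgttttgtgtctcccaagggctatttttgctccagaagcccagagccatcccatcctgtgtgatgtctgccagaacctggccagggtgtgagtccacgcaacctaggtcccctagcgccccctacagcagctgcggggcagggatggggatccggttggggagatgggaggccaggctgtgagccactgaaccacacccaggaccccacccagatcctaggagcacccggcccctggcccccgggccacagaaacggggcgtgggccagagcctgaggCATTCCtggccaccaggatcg
Itgb1 reads GGAATG, and Zyx, Flnc and Itga4 read its reverse complement CATTCC, the motif on the other strand. Vcl, which fell with stretch under both siRNAs, holds the motif too, at position −167. A second Zyx window, for another start, held none. The CArG box that SRF binds occurred in 1 member window (Itgb6), 2.86%, beside 1.64% of all windows. A match describes letters in the window, and nothing here measured binding.

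Beyond the members, 63 other genes of the adhesion pathway were read by the same tests, of which 57 were listed and 55 tested. With stretch under control siRNA 22 rose and 16 fell, where 27.5% and 26.8% of all genes did, so the falls were near the share of all genes. With equal library sums these counts were 10 and 24, beside 13.8% and 42.7%. With Wnt5a siRNA under stretch 5 rose and 26 fell, beside 13.2% and 14.2% of all genes. Equal sums gave 13 and 17, beside 20.8% and 7.71%, and quantile normalization 6 and 15, beside 11.1% and 11%. Without stretch, Wnt5a siRNA came with 6 higher and 12 lower, beside 14.6% and 13.9%. Stretch under Wnt5a siRNA gave 6 and 6, beside 8.44% and 7.59%, and 2 and 18 with equal sums, beside 4.77% and 16.9%. The interaction was positive in 7 and negative in 17, beside 11.7% and 12.1%, and in 9 and 11 with equal sums, beside 15.3% and 7.75%.

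Among 8 tested matrix ligands of integrins, 4 rose and 2 fell with stretch in the controls, beside 27.5% and 26.8% of all genes. With equal library sums 4 rose and 4 fell, beside 13.8% and 42.7%. Tenascin C (Tnc), a matrix protein of remodelling tissue, was at 35.3, 32.5 and 26.0 FPKM in the unstretched controls and 178, 142 and 242 in the stretched controls, and at 43.3, 47.2 and 37.0 without and 119, 144 and 102 with stretch under Wnt5a siRNA. Stretched libraries exceeded unstretched ones under both siRNAs, by 2.52 ± 0.18 on the log2 scale with the control (limma adjusted p = 1.54e-06) and 1.49 ± 0.18 with Wnt5a siRNA (0.000435), and the interaction was −1.03 (0.0145). Osteopontin (Spp1), an integrin ligand, rose under both as well (1.11, adjusted p = 5.05e-05, and 1.38, 0.000193). Vcam1, a ligand of the Itga4 chain, fell with stretch in the controls (−1.42, limma adjusted p = 1.36e-05) and with Wnt5a siRNA without stretch (−1.20, 0.000547), and had a positive interaction (1.60 ± 0.22, 0.00136).

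Among 8 other membrane receptors, 5 fell with Wnt5a siRNA under stretch and none rose, beside 14.2% and 13.2% of all genes. With quantile normalization 3 fell and 1 rose, beside 11% and 11.1%, and with equal sums 4 and 1, beside 7.71% and 20.8%. Syndecan 4 (Sdc4), a fibronectin co-receptor of focal adhesions, read 32.4, 30.1 and 26.8 FPKM in the unstretched controls, 59.8, 64.3 and 51.1 in the stretched controls, and 42.3, 43.2 and 38.5 with stretch and Wnt5a siRNA. The stretched controls did not overlap either group (log2 0.95, limma adjusted p = 9.15e-06 with stretch; −0.48, 0.00548 with Wnt5a siRNA under stretch). The muscle caveolin Cav3 fell with Wnt5a siRNA under stretch (−0.83 ± 0.14, 0.00257). Of 25 adaptors and LIM proteins, 13 fell and 1 rose in that comparison, beside 14.2% and 13.2% of all genes. The counts were 10 and 1 with quantile normalization (11% and 11.1%) and 11 and 4 with equal sums (7.71% and 20.8%). Among those that fell was the melusin gene Itgb1bp2, a muscle protein that binds the beta 1 tail, at −0.75 ± 0.15 (limma adjusted p = 0.0051).

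Enah, a relative of Vasp, had an interaction of −1.93 ± 0.34 (limma adjusted p = 0.00314), with 133, 92.0 and 93.1 FPKM in the unstretched controls and 352, 311 and 217 in the stretched controls, and 232, 264 and 163 without and 154, 203 and 116 with stretch under Wnt5a siRNA. The stretched controls lay above every unstretched control and every stretched Wnt5a siRNA library, stretched control 3 lay below 2 of the unstretched Wnt5a siRNA libraries, and under Wnt5a siRNA the stretched and unstretched libraries overlapped. Of 14 kinases, phosphatases and GTPase regulators, 4 rose and 5 fell with Wnt5a siRNA under stretch, beside 13.2% and 14.2% of all genes. The falls were 1 with quantile normalization (11% of all genes), when 3 rose (11.1%), and 1 with equal sums (7.71%), when 6 rose (20.8%). Rhoa, the small GTPase that drives stress fibres, rose with stretch in the controls (0.47 ± 0.07, 0.000116) and had a negative interaction (−0.53 ± 0.10, 0.00378). Arhgap26, a GTPase-activating protein that binds focal adhesion kinase, fell with stretch in the controls (log2 −2.22, 1.55e-05) and had a positive interaction (1.79 ± 0.34, 0.0047). Cttn was listed at 0 in every library.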

How the data were processed

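The deposited values are the authors' FPKM per gene symbol. Build rn6 was used with Cuffdiff 2.2.1, TopHat2 2.1.1 and Bowtie2, per the submitters' processing notes, and per the labels' protocols the mRNA libraries were stranded. The files give no counts, so depth is unknown. FPKM were tested, not counts, with limma 3.58.1 in R 4.3.3 on log2(FPKM + 1), which understates changes of low genes: genes at FPKM 1 or more in at least 3 libraries, 4 group means in one fit with 8 residual degrees of freedom, a mean-dependent prior, 2-sided tests and Benjamini-Hochberg adjustment over all 10518 genes with a threshold of 0.05. The procedure was tested on simulated data.

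The members and lists were chosen with earlier results of these data known. Values in every library are given for members with an adjusted p under 0.05 and a log2 change of at least 0.5 either way in any comparison, and for the most abundant chains. Pathway genes named are among the 4 of their list with the smallest adjusted p.

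The labels give the groups the same replicate numbers. Same-numbered libraries deviated together, with every correlation above 0.1, in stretch with Wnt5a siRNA (0.184, 0.242 and 0.143). In the other comparisons not every correlation passed 0.1. For Wnt5a siRNA they were 0.219, 0.095 and 0.231 in stretched cultures and 0.16, 0.058 and 0.186 in unstretched cultures. For stretch under control siRNA they were 0.249, 0.059 and −0.019. A cut of 0.1 does not show that pairing is absent there. The pairing thus comes from the data alone. Alternatives were the pseudocount, filters, quantile normalization, equal library sums, the replicate block, fits of only the groups compared, and leaving out each library.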

Additional observations from a re-analysis of the deposited data

Results flagged for a closer look

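The change with stretch differed between Wnt5a siRNA and control siRNA, by the interaction test of limma, in 14 members, and each value here is the stretch change with Wnt5a siRNA minus that with control siRNA on the log2(FPKM + 1) scale. Among integrin chains the difference was −0.57 for Itga1, −1.07 for Itga4, −0.81 for Itga5, −0.71 for Itgb1 and 0.53 for Itga8. For the proteins at the beta tail it was −0.65 for Tln1, −0.40 for Fermt2 and −0.59 for Ilk. The scaffold Pxn had −0.51. Actin linkers and LIM proteins had −0.84 (Zyx), −0.43 (Flna), −1.25 (Flnc), −1.47 (Actn1) and −0.84 (Pdlim7).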

How the results depend on the processing

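Of 69 called member results, 30 kept their call under every alternative; of 1297 values, 1073 kept direction and side of the threshold, 223 kept direction and lost the call, and 1 reversed (Fermt2, stretch with control siRNA, log2 −0.0157 with equal library sums). With equal library sums, 11 members rose and 9 fell with stretch under control siRNA (13.8% and 42.7% of all genes). Under Wnt5a siRNA 0 rose and 12 fell (4.77% and 16.9%), and there quantile normalization gave 10 lower (8.1%) and no filter 1 higher (6.27%). For Wnt5a siRNA without stretch, quantile normalization gave 7 higher (16.4%). Fitting only the groups compared gave 0 higher and 13 lower for Wnt5a siRNA with stretch, beside 5.51% and 5.97% of all genes. It gave 5 higher for Wnt5a siRNA without stretch (17.6% of all genes) and 8 lower for stretch with Wnt5a siRNA (10.3%). The replicate block gave 5 higher and 4 lower for Wnt5a siRNA without stretch, beside 15% and 14% of all genes. The members it added there were Tln1 and Tes, which rose, and Vcl and Tns1, which fell. Not every correlation of same-numbered libraries passed the cut in that comparison, which does not show that pairing is absent. For stretch with Wnt5a siRNA the block changed no call but that of Itga7 and added the falls of Tns1 and Actn4. It also called the rise of Itgb5 with stretch under control siRNA (0.0218), the fall of Parva with Wnt5a siRNA under stretch (0.0471), and the interactions of Itgb5 (0.0483), Bcar1, Vasp, Tes and Actn4. The cause of these shifts was not tested. For stretch with control siRNA, leaving out each library gave 12 to 18 higher and 1 to 3 lower. All-gene shares were 23.2% to 29.2% and 22.7% to 28.1%. For Wnt5a siRNA with stretch the counts were 0 to 3 and 9 to 23 (4.9% to 21.8% and 5.58% to 22.6%). For Wnt5a siRNA without stretch they were 1 to 6 and 0 to 4 (8.81% to 19.0% and 8.05% to 18.4%). Stretch with Wnt5a siRNA gave 0 to 2 and 1 to 9 (4.69% to 12.6% and 3.38% to 12.3%). The interaction gave 1 positive and 8 to 19 negative (7.23% to 16.5% and 7.71% to 18.1%). Changes smaller than the intervals given were not detectable with 3 libraries a group.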
